A study of Rattus norvegicus with 12 samples.

Results

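Ion channels of the potassium, transient receptor potential (TRP), sodium and chloride families were followed in rat vascular smooth muscle cells (RVSMCs) given angiotensin II (AngII) after knockdown of *Alivec*, an AngII-induced long non-coding RNA. The members are probe sets whose platform gene symbol starts with Kcn, Trpc, Trpm, Trpv, Scn or Clcn followed by a letter or digit. This name rule found 129 probe sets of 127 genes among 15049 probe sets with a symbol and 23188 in all. Members with a log2 signal of 6 or more on 3 or more of the 12 arrays were tested, which kept 48 probe sets of 48 genes among the 14796 tested. The rule used names and a signal minimum, and no response to AngII or knockdown.

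RVSMCs came from thoracic aortas, stripped of endothelium, of male Sprague-Dawley rats aged 12 weeks and were used at passages 3 to 6. They were transfected for 48 h with 100 nM of a GapmeR, a modified DNA oligomer through which RNase H cuts the matching RNA. It was directed against *Alivec* (*Alivec*Gap) or was a non-targeting control (NCGap, written NGGap in some labels), and the cells then received 100 nM AngII or PBS for 3 h. By the methods of the study, transfected cells were depleted of serum before AngII was given. The 4 groups were NCGap with PBS, NCGap with AngII, *Alivec*Gap with PBS and *Alivec*Gap with AngII, each with 3 Clariom S rat arrays of separate biological replicates. All groups carried a GapmeR, so untransfected cells stand in no comparison, and the knockdown rests on a single *Alivec* GapmeR. *Alivec* itself was not analysed here.

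Potassium channels let potassium leave the cell and hold its membrane potential negative, which closes voltage-gated calcium channels and relaxes arterial muscle. TRPC channels admit sodium and calcium when receptors such as that of AngII are engaged, and the channel of *Trpm4* admits sodium when calcium rises. Both depolarize the cell. Chloride channels at the surface also depolarize smooth muscle, while most CLC family members exchange chloride for protons in endosomes and lysosomes. Contractile and proliferating smooth muscle cells are known to use different potassium channels, with KCa3.1 in place of large-conductance channels in the proliferating state.

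Array medians were 6.68 to 6.76, and arrays of a group correlated at 0.992 to 0.995. All 8 smooth muscle markers were above 6 on every array. Of the 6 endothelial markers 5 were below 6 on every array, *Pecam1* and *Cdh5* among them, as were 4 of the 5 measured leukocyte markers (*Ptprc*, *Cd3e*, *Csf1r* and *Lyz2*). The remaining ones, endothelial *Cldn5* (6.09 to 6.74) and leukocyte *Cd68* (6.81 to 7.28), were above 6 on all 12 arrays. Of 6 neuronal markers 3 were below 6 throughout, while *Tubb3* (7.80 to 8.75), *Syt1* and *Nefl* reached 6 on 12, 5 and 7 arrays. *Sox10*, 1 of 3 Schwann cell and glial markers measured, had 6.75 to 7.17, and *S100b* and *Gfap* were below 6 throughout. Of 3 cardiac markers *Tnnt2* reached 6 on 4 arrays, *Nppa* on 2 and *Ryr2* on none. The 4 adventitial fibroblast markers, *Pdgfra*, *Dcn*, *Lum* and *Mfap5*, were above 6 on every array. In these cultures a change in the share of a cell type and a change in RNA per cell cannot be told apart.

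Of the 129 probe sets of the name rule 37.2% were tested, against 67.7% of all named probe sets, and 71 of the 81 that were not tested stayed below 6 on every array. Of the 48 tested members 34 were at 6 or more on all 12 arrays and 14 on 3 to 11 arrays. No array reached 7 for 26 members, and an array reached 8 for 13. The median SD within groups was 0.178 for members and 0.123 for all tested probe sets on the log2 scale. The CLC family had the highest share tested, 6 of 7. The shares were 6 of 13 for tandem pore domain (K2P) channels, 3 of 5 for TRPC, 4 of 7 for TRPM and 4 of 6 for TRPV. They were 9 of 36 for voltage-gated potassium pores, 6 of 18 for potassium auxiliary subunits, 2 of 6 for calcium- and sodium-activated potassium pores and 3 of 15 for inward rectifiers. Of 11 voltage-gated sodium channel genes 2 were tested, and of 3 epithelial sodium channel genes 1 was. *Scnm1*, a splicing factor gene, and *Trpc4ap*, an adaptor gene, fit the name rule without encoding a channel subunit and are kept in the counts.

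Several channels known from arterial muscle lay below the minimum. *Kcnma1*, the pore of the large-conductance calcium-activated (BK) channel, had signals of 4.40 to 5.22 over the 12 arrays. Its smooth muscle subunit gene *Kcnmb1*, which raises the calcium sensitivity of the pore, had 9.40 to 9.88, although signals of different probe sets cannot be set against each other. *Kcnj8*, the pore of the vascular ATP-sensitive channel, had 5.17 to 5.94, the inward rectifier *Kcnj2* 5.08 to 5.54 and the voltage-gated channel *Kcna5* 4.63 to 5.52. A signal under the minimum does not show that a gene is not expressed. *Kcnip2* had 3 probe sets, of which 1 was tested and the other two stayed below 6 on every array.

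The question of the AngII comparison is which of these channels respond to 3 h of AngII. In NCGap cells 4 members rose and 8 fell at an adjusted p under 0.05 by limma, of 48 tested. *Kcnn4* rose 6.13-fold, *Trpc4* 2.62-fold and the endosomal exchanger gene *Clcn5* 1.90-fold, while the A-type potassium channel gene *Kcnd1* fell to 0.544 of its PBS level. Over all 14796 probe sets 13.3% rose and 17.9% fell. The members' shares, 8.33% and 16.7%, were below and close to this background. The median change was -0.11 for the members and -0.05 for all tested probe sets on the log2 scale.

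*Kcnn4* encodes KCa3.1, an intermediate-conductance calcium-activated potassium channel linked to smooth muscle proliferation. Its log2 signals with NCGap were 7.24, 6.45 and 7.11 with PBS and 9.64, 9.44 and 9.56 with AngII. All AngII arrays lay above all PBS arrays by more than 2 log2 units. The log2 fold change was 2.62 (SE 0.184, adjusted p = 5.9e-07, limma, n = 3 per group).

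With *Alivec*Gap the signals of *Kcnn4* were 6.77, 7.19 and 7.29 with PBS and 9.50, 9.41 and 9.67 with AngII. The rise was 5.43-fold (log2 2.44, adjusted p = 1.5e-06). The difference between the rises was -0.17 on the log2 scale, with a 95% interval of -0.74 to 0.39. The other calcium-activated pore that was tested, the small-conductance channel gene *Kcnn1*, went the opposite way. It had 6.71, 6.55 and 6.6 with PBS and 6.43, 5.44 and 5.88 with AngII in NCGap cells. The AngII arrays of *Kcnn1* were spread over nearly a log2 unit and lay below the PBS arrays. It reached 6 on 8 arrays, among them every PBS array with either GapmeR. It thus passed the detection filter mainly through the groups where it was high, and its place among the falls is not independent of that filter. Since their mean was under 6, *Kcnn1* fell to at most 0.651 of the PBS level (adjusted p = 0.0101). This bound rests on NCGap with AngII replicate 2 (5.44), without which the AngII mean was above 6 and the log2 change was -0.47 in place of -0.71 (adjusted p = 0.0262). The fall with *Alivec*Gap was to at most 0.713 (adjusted p = 0.0461).

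*Trpc4* encodes a receptor-operated and calcium-permeable cation channel. Its signals with NCGap were 7.22, 7.37 and 7.17 with PBS and 8.70, 8.61 and 8.62 with AngII. Those with *Alivec*Gap were 7.01, 7.54 and 7.47 with PBS and 8.47, 8.30 and 8.60 with AngII. The AngII and PBS arrays did not overlap with either GapmeR. The log2 fold change was 1.39 (SE 0.126, adjusted p = 5.5e-06) with NCGap and 1.12 (adjusted p = 4.5e-05) with *Alivec*Gap. The difference between these rises, -0.27, had a 95% interval of -0.66 to 0.12.

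The other TRPC channels did not follow *Trpc4*. *Trpc6*, a channel opened by diacylglycerol below the AngII receptor, had 9.58 ± 0.03 with PBS and 9.64 ± 0.06 with AngII in NCGap cells (mean ± SD, n = 3), a difference with a 95% interval of -0.09 to 0.21. *Trpc1*, a subunit of store- and receptor-operated channels, had 7.35 ± 0.10 and 7.13 ± 0.09 (log2 change -0.22, adjusted p = 0.0674). With *Alivec*Gap *Trpc1* changed by -0.20 (adjusted p = 0.0992). The *Trpc1* arrays with AngII lay below those with PBS under both GapmeRs, and neither difference passed the adjusted threshold.

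The window at the annotated start of *Trpc4* is shown because this gene had the largest rise among the members that have a promoter entry. Promoters are those of RefSeq (GRCr8), with 250 bases before and 50 after the annotated start. They were found for 37 of the 48 tested members and none was found for *Kcnn4*, *Kcnd1*, *Kcnn1* or *Kcnh2*. The window of *Trpc4* at chr2:140501046-140501345 on the + strand has a GC content of 39.7%, against a median of 51.7% over all promoters.
*Trpc4*: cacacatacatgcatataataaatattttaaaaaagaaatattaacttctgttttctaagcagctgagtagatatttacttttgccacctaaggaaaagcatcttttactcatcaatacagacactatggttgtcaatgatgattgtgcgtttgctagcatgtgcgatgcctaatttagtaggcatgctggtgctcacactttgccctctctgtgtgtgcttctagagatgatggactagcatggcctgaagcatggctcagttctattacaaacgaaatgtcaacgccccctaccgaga

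None of the motifs searched is in this window. An ATG comes close after the annotated start, and whether transcription of *Trpc4* begins there was not tested. The absence of motifs is thus that of this window and may not be that of the promoter. These were AP-1 (TGANTCA, in 7.33% of the 33469 promoters of the table, where a gene can have several starts), CRE (TGACGTCA, 1.83%), EGR (GCGTGGGCG, 0.544%), the GC box (GGGCGG, 33.1%) and the CArG box of smooth muscle genes (1.64%), each on both strands. The EGR letters do not hold those of the GC box. Among the 37 members with a promoter 1 held AP-1, 1 held CRE, none held EGR or the CArG box and 16 held a GC box. A match is a description of letters and not of a bound site.

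*Clcn5* and *Kcnj14* were the remaining members that rose in NCGap cells. *Clcn5* had 6.03, 6.16 and 6.77 with PBS and 7.05, 7.43 and 7.24 with AngII. With *Alivec*Gap it had 6.53, 6.25 and 6.6 and then 7.35, 7.26 and 7.39. It encodes the chloride-proton exchanger of endosomes, and its AngII arrays lay above its PBS arrays with either GapmeR. The rise was 1.90-fold with NCGap (adjusted p = 0.00127) and 1.83-fold with *Alivec*Gap (adjusted p = 0.00232).

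*Kcnj14*, which encodes the inward rectifier Kir2.4, was close to the detection minimum. It had 5.52, 5.58 and 5.94 with PBS and 6.28, 6.37 and 5.95 with AngII in NCGap cells. The highest PBS array and the lowest AngII array were nearly level. It reached 6 on 6 arrays, of which 5 had AngII, so it passed the detection filter mainly through the groups where it was high, and its place among the 4 rises is not independent of that filter. The rise was at least 1.15-fold (adjusted p = 0.0182). The call was lost without NCGap with PBS replicate 1 (adjusted p = 0.0747) or 2 (0.0569), and without NCGap with AngII replicate 1 (0.0616) or 2 (0.074). With *Alivec*Gap the rise was at least 1.10-fold and did not pass (adjusted p = 0.0625).

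**Figure D1:**
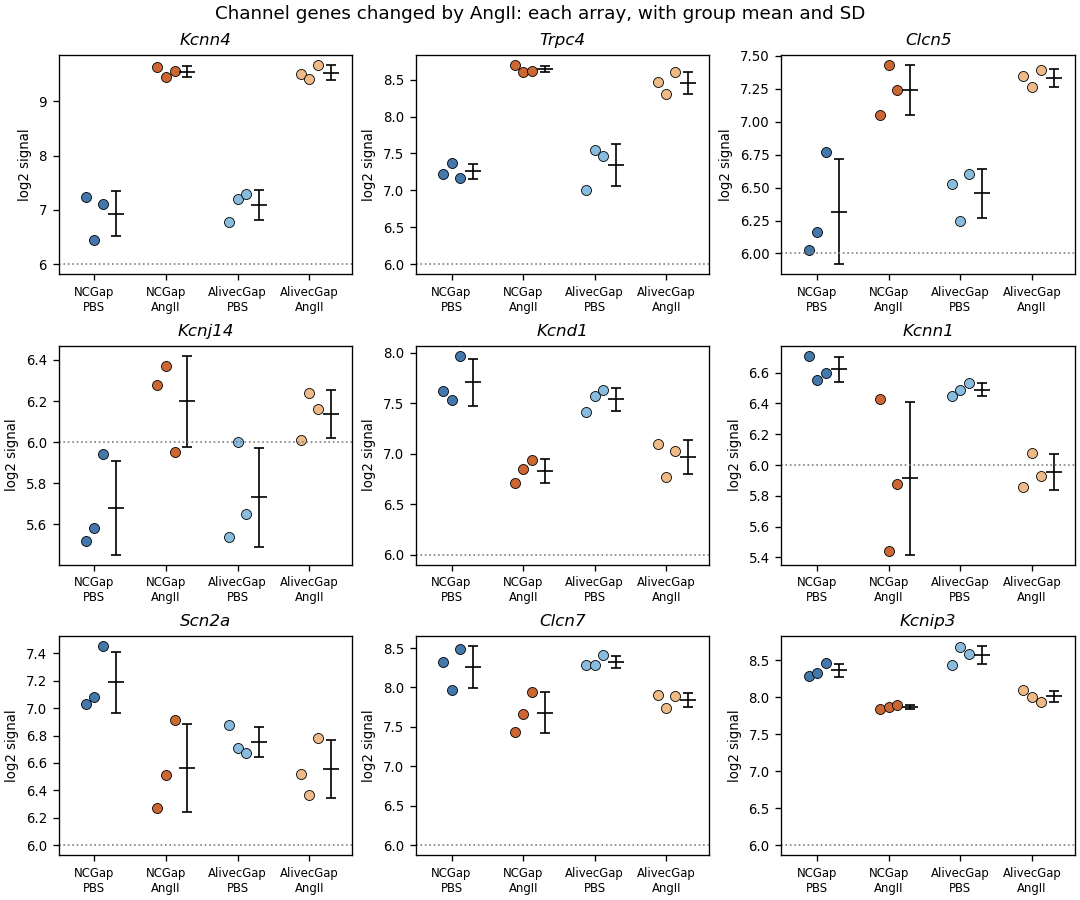
Log2 signal (y axis, a scale of its own for each gene) of the 4 channel genes that rose and the 5 with the largest falls after AngII in NCGap cells, in the 4 groups of 3 arrays. Points are arrays, bars are the group mean and SD, and the dotted line marks the detection minimum of 6. The AngII arrays of *Kcnn4* (9.41 to 9.67) stand apart from its PBS arrays (6.45 to 7.29) with both GapmeRs.

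Among the falls, *Kcnd1* and *Kcnip3* belong to the A-type potassium current, in which Kv4 pores such as *Kcnd1* pair with KChIP proteins. *Kcnd1* had 7.62, 7.53 and 7.97 with PBS and 6.71, 6.85 and 6.94 with AngII in NCGap cells. With *Alivec*Gap it had 7.41, 7.57 and 7.63 and then 7.10, 6.77 and 7.03. The AngII arrays were the lower ones throughout. *Kcnd1* fell by 0.88 on the log2 scale with NCGap (SE 0.122, adjusted p = 1.8e-04) and by 0.57 with *Alivec*Gap (adjusted p = 0.00474). The difference between these falls was 0.31 with a 95% interval of -0.07 to 0.69.

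*Kcnip3*, whose product KChIP3 is also known as the calcium-binding transcriptional repressor DREAM, had 8.29, 8.33 and 8.47 with PBS and 7.84, 7.87 and 7.89 with AngII. With *Alivec*Gap it had 8.44, 8.68 and 8.59 and then 8.10, 8.01 and 7.94. The groups given AngII and PBS did not overlap. It fell to 0.710 (adjusted p = 4.5e-04) and to 0.680 (adjusted p = 2.5e-04) of its PBS level.

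*Kcnd3* (Kv4.3), another A-type pore gene, had 9.05 ± 0.07 with PBS and 8.90 ± 0.07 with AngII in NCGap cells (adjusted p = 0.203). With *Alivec*Gap it fell to 0.828 (adjusted p = 0.0379), from 9.02, 9.29 and 8.97 to 8.75, 8.90 and 8.81. The difference between the GapmeRs was -0.12 with a 95% interval of -0.39 to 0.16, so a call with one GapmeR alone does not show a different response. *Kcnip2*, the KChIP gene of the cardiac A-type current, had 6.37 ± 0.13 with PBS and 6.54 ± 0.08 with AngII in NCGap cells (adjusted p = 0.18). The pore gene *Kcnh2* (ERG1) fell with both GapmeRs, to 0.788 (6.78, 7.0 and 7.0 against 6.57, 6.58 and 6.6, adjusted p = 0.00408) and 0.831 (adjusted p = 0.0201) of the PBS level.

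The voltage-gated sodium channel gene *Scn2a* (Nav1.2), better known from neurons, had 7.03, 7.08 and 7.45 with PBS and 6.27, 6.51 and 6.91 with AngII in NCGap cells. It fell to 0.648 of its PBS level (adjusted p = 0.0105). With *Alivec*Gap it had 6.88, 6.71 and 6.67 with PBS and 6.52, 6.37 and 6.78 with AngII, groups that overlapped (log2 change -0.20, adjusted p = 0.41). The summed linear signal of the 6 neuronal markers was 449 to 501 with PBS and 563 to 605 with AngII in NCGap cells. Of these markers *Tubb3* rose 1.40-fold (adjusted p = 0.00864, limma), while *Syt1* (adjusted p = 0.319) and *Nefl* (adjusted p = 0.977) did not pass. *Snap25*, *Rbfox3* and *Elavl4* were below 6 on every array. Whether neuronal cells were present, and their part in the *Scn2a* values, was not tested.

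In the CLC family the lysosomal exchanger gene *Clcn7* and the endosomal exchanger gene *Clcn3* fell while *Clcn5* rose. *Clcn7* had 8.32, 7.97 and 8.49 with PBS and 7.43, 7.67 and 7.94 with AngII in NCGap cells. It fell to 0.670 (adjusted p = 0.00718), and to 0.719 with *Alivec*Gap (adjusted p = 0.0236). *Clcn3* had 8.29, 8.26 and 8.48 with PBS and 8.04, 7.86 and 7.85 with AngII. The AngII arrays of both genes lay below their PBS arrays. *Clcn3* fell to 0.745 (adjusted p = 0.00378) with NCGap, and with *Alivec*Gap the change of -0.21 did not pass (adjusted p = 0.116). The interval for the difference between the *Clcn3* responses, -0.07 to 0.50, held 0. *Clcn6*, a late endosomal exchanger gene, had 8.07 ± 0.04 and 8.12 ± 0.06, with an interval of -0.09 to 0.20. *Clcn4* (6.26 ± 0.30 and 6.26 ± 0.32) was measured less closely, with an interval of -0.41 to 0.40.

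Promoters of *Clcn3* and *Kcnip3* are shown as those of members that fell, with a CRE (*Clcn3*) or a GC box (*Kcnip3*) in capitals, and both are the only such matches in their windows. The *Clcn3* window is 1 of 2 starts in the table, at chr16:34137754-34138053 on the + strand, and its CRE begins at position -63 from the start. The window of the other *Clcn3* start holds none of the motifs. Of the members that fell, 4 had a promoter entry, and the windows of *Clcn7* and *Scn2a* hold none of the motifs either. The windows shown are thus those with a match. The *Kcnip3* window is at chr3:135195361-135195660 on the - strand.
*Clcn3*: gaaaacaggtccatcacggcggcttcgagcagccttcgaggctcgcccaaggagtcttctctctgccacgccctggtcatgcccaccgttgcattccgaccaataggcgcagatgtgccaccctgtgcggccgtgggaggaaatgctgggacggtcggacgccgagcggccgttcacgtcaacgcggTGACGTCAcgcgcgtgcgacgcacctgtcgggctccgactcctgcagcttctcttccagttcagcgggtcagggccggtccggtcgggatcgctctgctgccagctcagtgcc
*Kcnip3*: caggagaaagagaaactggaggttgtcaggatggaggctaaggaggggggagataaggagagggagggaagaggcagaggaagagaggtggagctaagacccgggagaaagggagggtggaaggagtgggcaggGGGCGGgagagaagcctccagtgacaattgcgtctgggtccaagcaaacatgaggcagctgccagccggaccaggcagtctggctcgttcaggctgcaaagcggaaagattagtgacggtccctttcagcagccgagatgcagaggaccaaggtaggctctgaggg

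*Scnm1*, the splicing factor gene, was the eighth member that fell in NCGap cells (to 0.848, adjusted p = 0.0247), and the interval of the *Trpc4ap* change held 0. Besides the 12 members called, *Trpc1* and *Clcn2* had an unadjusted p under 0.05. No TRPM, TRPV or K2P channel gene had one in NCGap cells. *Trpm7*, a channel fused to a kinase and important for magnesium uptake, had 9.48 ± 0.06 with PBS and 9.46 ± 0.04 with AngII (interval -0.17 to 0.13). *Trpm4*, a calcium-activated sodium-permeable channel gene, had 6.65 ± 0.23 and 6.79 ± 0.04 (interval -0.12 to 0.39). *Trpv4*, a mechanosensitive and osmosensitive channel gene, had 6.33 ± 0.19 and 6.65 ± 0.33 (adjusted p = 0.135). *Kcnmb1* had 9.82 ± 0.06 and 9.68 ± 0.11 (interval -0.32 to 0.03).

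With *Alivec*Gap, AngII raised 5 members and lowered 6, that is 10.4% and 12.5% of 48, where 10.8% and 15.6% of all tested probe sets rose and fell. The 5 were *Kcnn4*, *Trpc4*, *Clcn5*, *Trpv2* and *Kcnk12*, and the 6 were *Kcnd1*, *Kcnip3*, *Kcnh2*, *Clcn7*, *Kcnd3* and *Kcnn1*. Of the 12 members called with NCGap, *Kcnj14*, *Scn2a*, *Clcn3* and *Scnm1* were not called here. *Trpv2*, a growth factor- and stretch-responsive cation channel gene, had 6.84, 6.96 and 6.76 with PBS and 7.02, 7.19 and 7.40 with AngII. It rose 1.28-fold (adjusted p = 0.0221). In NCGap cells *Trpv2* had 6.88, 6.99 and 6.76 and then 6.99, 7.17 and 7.07, with a change of 0.20 (adjusted p = 0.162). The members' median change was 0.01 and that of all tested probe sets -0.04.

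**Figure D2:**
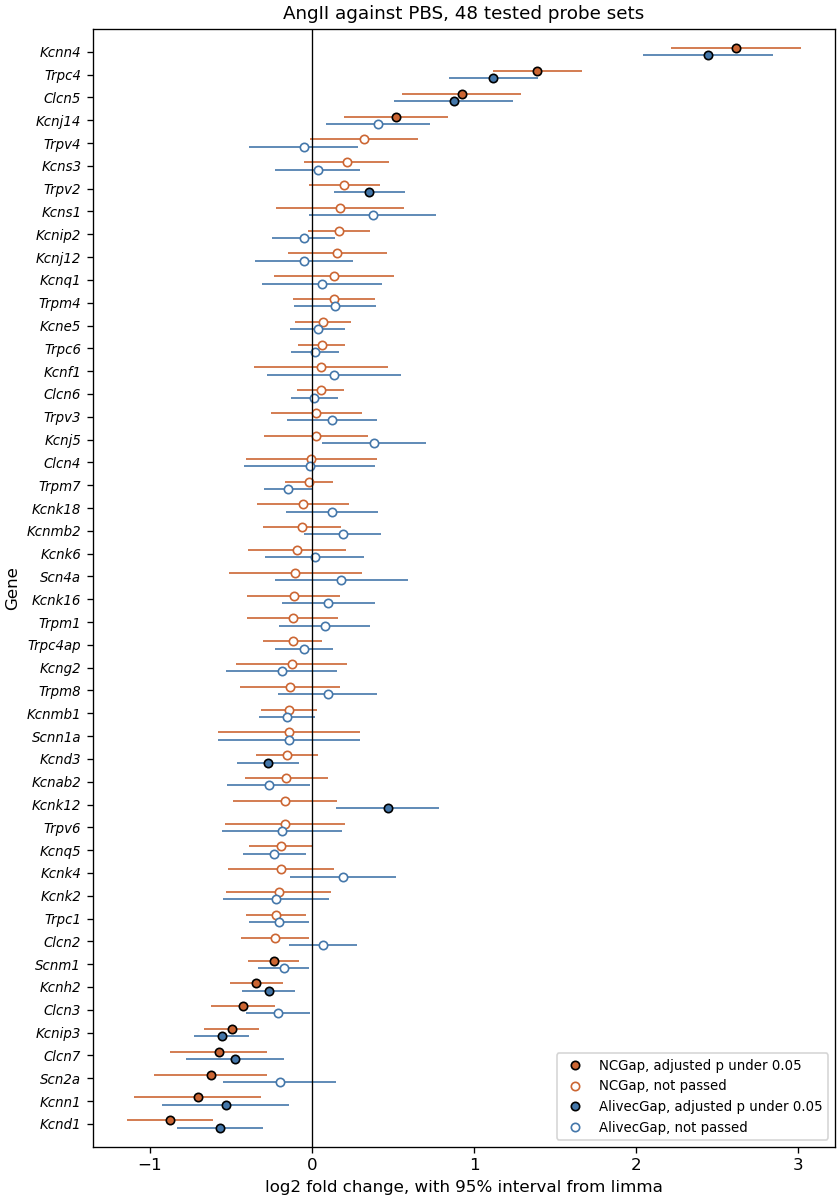
Log2 fold change of AngII against PBS (x axis) for the 48 tested members (y axis, ordered by the change in NCGap cells), with 95% intervals from limma. NCGap is orange and *Alivec*Gap is blue, and filled points passed an adjusted p under 0.05. *Kcnn4* (2.62 and 2.44) and *Trpc4* (1.39 and 1.12) stand apart at the top, and *Kcnd1* (-0.88 and -0.57) is lowest.

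The knockdown comparison asks which channel genes differ after knockdown of *Alivec*, and *Kcnq5* was the member that changed. The study reported a partial reduction of AngII-induced *Alivec* by its GapmeR, and not a full loss. *Kcnq5* encodes Kv7.5, one of the voltage-gated potassium channels that hold the resting potential of arterial muscle. With PBS it had 8.29, 8.33 and 8.65 with NCGap and 7.97, 8.04 and 8.02 with *Alivec*Gap. With AngII it had 8.25, 8.20 and 8.25 with NCGap and 7.70, 7.84 and 7.79 with *Alivec*Gap. Every *Alivec*Gap array lay below every NCGap array.

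In the mean of PBS and AngII *Kcnq5* fell to 0.739 of the NCGap level (log2 -0.44, SE 0.0633, adjusted p = 0.0039), the only member called. With PBS alone the change was to 0.750 (adjusted p = 0.0866) and with AngII alone to 0.729 (adjusted p = 0.0427). Of all tested probe sets 1.65% were lower and 1.08% higher in the mean, and at an unadjusted p under 0.05, which 14.6% of all passed, there were 10 members (20.8%). The AngII call of *Kcnq5* rests on each of the 6 arrays compared, since leaving out any of them gave an adjusted p of 0.0708 to 0.174. It was also lost without any of the *Alivec*Gap with PBS arrays (0.0581 to 0.0653), which enter the shared spread. The call in the mean kept an adjusted p under 0.05 in all 20 alternatives run.

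The *Kcnq5* window is shown as that of the member changed by knockdown, with its 2 GC box matches in capitals, both read on the opposite strand. It lies at chr9:31891232-31891531 on the - strand and has a GC content of 68.3%. The matches begin 23 and 29 bases after the annotated start, and no other motif searched is present.
*Kcnq5*: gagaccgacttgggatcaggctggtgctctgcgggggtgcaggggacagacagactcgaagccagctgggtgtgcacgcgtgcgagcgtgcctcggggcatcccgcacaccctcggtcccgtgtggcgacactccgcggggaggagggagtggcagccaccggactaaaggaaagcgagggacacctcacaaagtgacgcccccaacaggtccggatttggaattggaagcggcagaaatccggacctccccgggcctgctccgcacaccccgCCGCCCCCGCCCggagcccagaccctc

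With PBS no member passed an adjusted p under 0.05 by limma, where 0.399% of all tested probe sets did. At an unadjusted p under 0.05 there were 6 (12.5%, against 9.64% of all). By the rule of the study (1.2-fold or more with an unadjusted p under 0.05), *Kcnq5*, *Scn2a* and *Kcnk2* were lower and none was higher, where 2.69% of all were lower and 2.24% higher. *Scn2a* had 7.19 ± 0.22 with NCGap and 6.75 ± 0.11 with *Alivec*Gap, without overlap (adjusted p = 0.371). With AngII the *Scn2a* means were 6.56 ± 0.32 and 6.56 ± 0.21.

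With AngII *Kcnq5* was the 1 member past an adjusted p under 0.05, as were 0.818% of all tested probe sets. At the study thresholds *Kcnq5*, *Kcnk2* and *Kcnip2* were lower, and *Kcnk12*, *Clcn2* and *Kcnk18* were higher. Of all tested probe sets 3.24% were lower and 2.86% higher by this rule. *Clcn2*, which encodes a chloride channel opened by hyperpolarization, had 6.19, 6.12 and 6.45 with NCGap and 6.67, 6.59 and 6.65 with *Alivec*Gap (1.30-fold, adjusted p = 0.101). Its AngII arrays did not overlap, and with PBS its arrays did (6.49 ± 0.08 and 6.57 ± 0.14). *Kcnip2* had 6.45, 6.62 and 6.55 with NCGap and 6.15, 6.32 and 6.18 with *Alivec*Gap (0.799-fold, adjusted p = 0.13).

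*Kcnk2* and *Kcnk12* differed in the mean of PBS and AngII at the study thresholds only. *Kcnk2* encodes TREK-1, a K2P channel opened by stretch and lipids. It had 7.12, 7.28 and 7.58 with NCGap and 6.82, 7.12 and 7.02 with *Alivec*Gap under PBS, and 7.22, 6.82 and 7.32 against 6.71, 6.64 and 6.95 under AngII. The groups overlapped, and the mean change to 0.786 had an adjusted p of 0.121. *Kcnk12*, a K2P channel gene (THIK-2), was within 1 log2 unit of the minimum on every array. *Kcnmb1*, the BK subunit gene, was 0.878 of the NCGap level with PBS and 0.872 with AngII, with arrays that nearly touched but did not overlap in each case and an adjusted p of 0.107 in the mean. *Trpc1* was 0.880 of the NCGap level in the mean (adjusted p = 0.155).

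**Figure D3:**
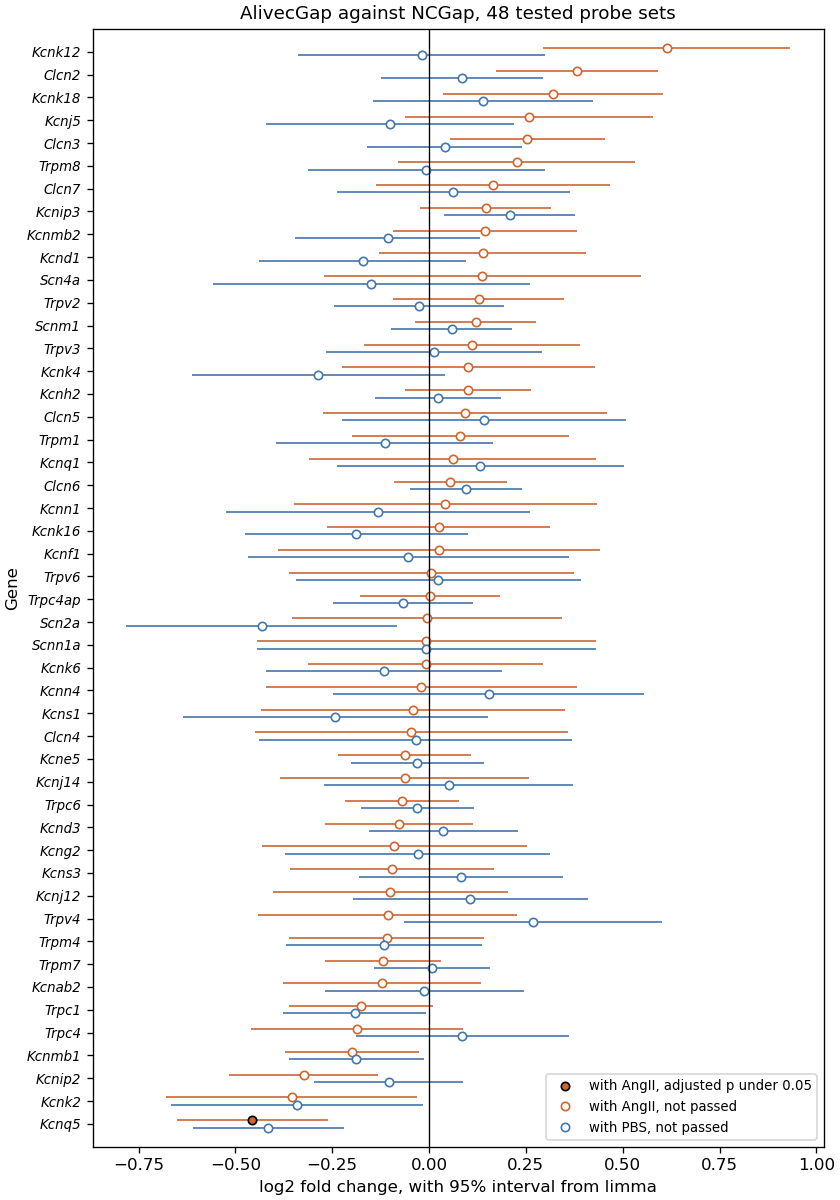
Log2 fold change of *Alivec*Gap against NCGap (x axis) for the 48 tested members (y axis, ordered by the change with AngII), with 95% intervals from limma. Orange is with AngII and blue with PBS, and a filled point passed an adjusted p under 0.05. The filled point is that of *Kcnq5* with AngII (-0.46), and measured changes ran from -0.46 to 0.61, the highest being *Kcnk12*, whose NCGap mean was under the minimum.

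Most members that were lower after knockdown at the study thresholds were long genes. Of the 48 members 11 (22.9%) span at least 100 kb in RefSeq, against 11% of tested named probe sets. These are *Kcnq5*, *Kcnk2*, *Scn2a*, *Trpc4*, *Trpc6*, *Kcnd3*, *Kcnq1*, *Kcnmb2*, *Trpm1*, *Trpm8* and *Clcn5*. All 3 members lower with PBS at the study thresholds were among the 11, where 8.47% of all long named genes and 1.79% of the shorter ones were lower. With AngII 2 of the 11 and 1 of the 37 shorter members were lower, against 13.1% and 1.95%. The part of span in these differences was not tested. The fall of *Kcnq5* in the mean stands beside 8.29% of all long genes called lower and 0.905% of shorter ones. The median change of the 11 long members was -0.02 and that of the 1122 long named genes -0.05.

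The interaction of GapmeR and AngII asks whether the AngII response differed after knockdown. No member passed an adjusted p under 0.05 by limma, and 0.0% of all tested probe sets did. At an unadjusted p under 0.05 there was 1 member (2.08%), *Kcnk12*, against 5.5% of all. It had 5.90, 6.07 and 5.87 with NCGap and PBS and 6.03, 5.71 and 5.60 with NCGap and AngII. With *Alivec*Gap it had 6.12, 5.68 and 5.99 with PBS and 6.66, 6.22 and 6.30 with AngII. The *Alivec*Gap with AngII arrays were the highest of the 12, and the other groups were near or below the minimum. AngII raised *Kcnk12* at least 1.31-fold with *Alivec*Gap (adjusted p = 0.0339) and did not pass with NCGap (adjusted p = 0.43). Since 3 of the 4 group means were under 6, no size is given for the difference between these responses, which did not pass either (adjusted p = 0.876, limma). The next were *Clcn2* (0.30, adjusted p = 0.91) and *Scn2a* (0.43, adjusted p = 0.928), by p value.

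**Figure D4:**
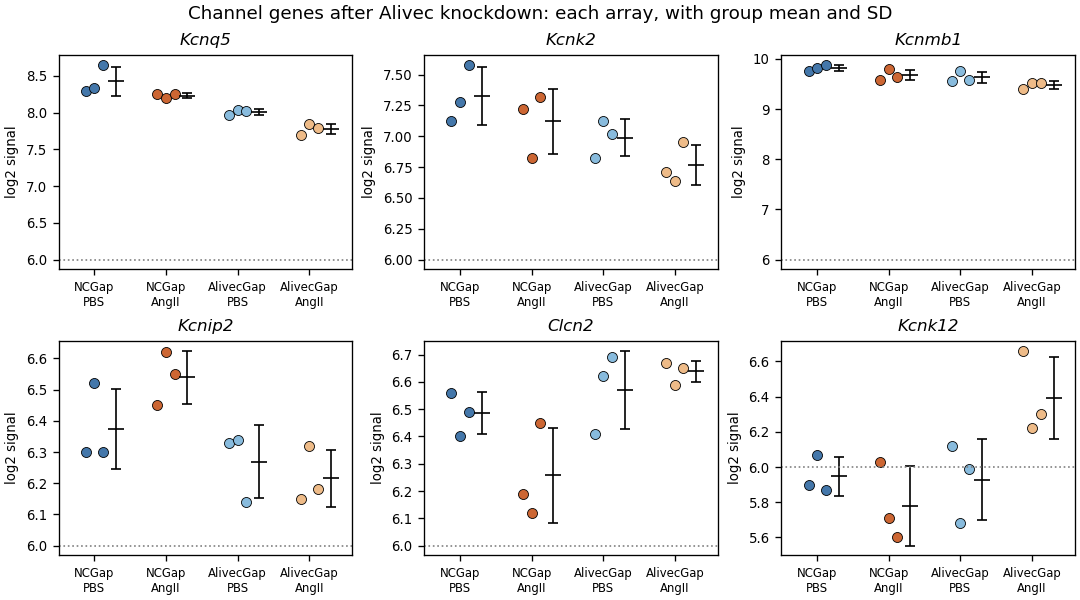
Log2 signal (y axis, a scale of its own for each gene) of 6 channel genes in the 4 groups of 3 arrays. Points are arrays, bars are the group mean and SD, and the dotted line marks the detection minimum of 6. *Kcnq5* is lower in the *Alivec*Gap groups (7.70 to 8.04) than in the NCGap groups (8.20 to 8.65), and *Kcnk12* exceeds 6 on all arrays only with *Alivec*Gap and AngII.

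Other ion channel genes and channel regulators were counted on lists outside the name rule. Of 58 other ion channel genes 46 had a probe set and 28 were tested, and AngII raised 11 and lowered 4 of them in NCGap cells, where 13.3% of all tested probe sets rose and 17.9% fell. *Ano1*, the calcium-activated chloride channel of arterial muscle, rose at least 3.13-fold (adjusted p = 8.0e-07), and the stretch-activated channel gene *Piezo1* rose 1.72-fold (adjusted p = 4.6e-05). *Lrrc8a* and *Lrrc8c*, subunits of the volume-regulated anion channel, rose 1.57-fold and 1.59-fold. The store-operated calcium channel gene *Orai1* rose 1.35-fold while *Orai2* fell to 0.772. With PBS *Ano1* was also at least 1.89-fold higher with *Alivec*Gap than with NCGap (adjusted p = 0.0131, limma). Under AngII this difference was 1.28-fold and did not pass (adjusted p = 0.279, limma). In the mean of PBS and AngII *Ano1* was called higher with *Alivec*Gap (adjusted p = 0.00265, limma). The AngII rise of *Ano1* with *Alivec*Gap was 2.12-fold. Its difference from the rise with NCGap did not pass (adjusted p = 0.857, limma).

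Of 25 regulators 21 were tested, of which 7 rose and 1 fell with AngII in NCGap cells, beside the same 13.3% and 17.9% of all tested probe sets. Both lists were written with earlier results of these data known. *Sgk1*, a kinase that raises the surface level of several potassium and sodium channels, rose at least 12.9-fold (adjusted p = 4.4e-10). *Wnk3* and *Wnk4*, kinases of chloride and potassium handling, rose 2.52-fold and 1.48-fold. The anchoring protein gene *Akap12* rose 9.27-fold and *Akap5* fell to 0.384 of its PBS level. *Rest*, which encodes a repressor of neuronal genes, rose 1.25-fold (adjusted p = 0.0182, limma). *Prkg1*, the cGMP-dependent kinase that opens BK channels, fell to 0.572 with knockdown under AngII (adjusted p = 0.00463, limma). It spans at least 100 kb, and no regulator was called with knockdown under PBS.

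Some smooth muscle and fibroblast markers differed between the same groups. Of the 8 smooth muscle markers *Myh11*, *Smtn* and *Lmod1* fell with AngII in NCGap cells to 0.735, 0.768 and 0.764 of the PBS level. The log2 changes of *Acta2* (-0.07), *Tagln* (-0.07), *Cnn1* (-0.003), *Cald1* (-0.09) and *Des* (0.27) did not pass. In the mean knockdown comparison *Cnn1* fell to 0.843 of the NCGap level (adjusted p = 0.0117) and the other 7 did not pass. In NCGap cells the summed signal of the 8 smooth muscle markers was 35200 to 36000 with PBS and 32000 to 33000 with AngII. The sum of the 4 fibroblast markers was 2950 to 3110 with NCGap and PBS and 3460 to 3810 with *Alivec*Gap and PBS. With AngII it was 2270 to 2700 with NCGap and 2980 to 3290 with *Alivec*Gap, where *Dcn* (1.49-fold) and *Mfap5* (1.41-fold) were called higher. The part of these markers' cells in the values of *Kcnq5* and the other members was not tested.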

How the data were processed

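Clariom S arrays measured RNA of 12 RVSMC cultures. The deposited values are log2 signals that the authors normalized by RMA in Partek. Its options and the genome build were not given in the sources used here. Gene symbols came from the platform table and were the same in the RefSeq table of GRCr8 for all 129 member probe sets. No column of unknown sample was present.

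limma 3.58.1 in R 4.3.3 (lmFit and eBayes, prior degrees of freedom 4.08) was fitted to the 4 group means over 14796 probe sets, and p-values were adjusted over all of them (Benjamini-Hochberg). The study used Partek's analysis of variance, with thresholds of 1.2-fold and p under 0.05. A group mean under 6 was set to 6 for a fold given as a bound. Arrays per group (3) limit the precision. The p-values reflect the spread of replicate arrays within all 4 groups, moderated by a prior from all tested probe sets, and no wider variation.

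Named members are the 5 largest changes in each direction with AngII in NCGap cells at an adjusted p under 0.05, the largest with knockdown, the 3 smallest interaction p-values and a fixed list of arterial channels. Other members, such as *Kcnh2*, *Kcnip2*, *Kcnd3*, *Clcn4* and *Clcn6*, and the genes of the other lists were named after their values were seen. The members and lists were chosen with earlier results of these data known, and the lists were written from memory. Alternatives were the filter, centring, quantile normalization, the moderation and prior of the spread, the groups in the fit, a replicate block, array weights, gene span, and each array left out. On data simulated for AngII with NCGap over 14796 genes, 96% of genes changed 2-fold and 76% of those changed 1.5-fold were found, with 7 of 14596 unchanged genes called. In it 100 genes were changed at each fold, a smaller share than AngII changed in the data. The rates are over all tested genes, whose median SD (0.123) was below that of the members (0.178), and are not rates for the members.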

Additional observations from a re-analysis of the deposited data

How the results depend on the processing

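No result reversed. *Kcnn4*, *Trpc4*, *Clcn5*, *Kcnd1*, *Kcnn1*, *Scn2a*, *Clcn7* and *Kcnip3* kept an adjusted p under 0.05 for AngII with NCGap in all 21 alternatives, and *Kcnj14* in 16. Counts below are members of 48, and the causes were not tested unless the alternative tests fewer or more genes. With no filter on low signal, members lower with AngII and *Alivec*Gap numbered 3 (from 6), study-threshold members with knockdown were 5 lower (from 3) and 3 higher (from 0) with PBS and 7 lower and 5 higher (from 3 each) with AngII, and interaction members at p under 0.05 were 6 (from 1). The stricter filter gave 2 for the interaction. Without moderation, 3 were lower with AngII and *Alivec*Gap. With the groups compared alone, 8 were higher with AngII and *Alivec*Gap (from 5) and 1 was higher with knockdown and PBS. Array weights gave 8 higher with AngII and *Alivec*Gap and 4 for the interaction. A prior that follows the signal gave 3 members lower in the mean knockdown comparison (from 1), with *Kcnk2* at an adjusted p of 0.0447. With genes of at least 100 kb left out, 0 members were lower in that mean and with PBS and 1 with AngII. For *Kcnq5* with PBS, the adjusted p was 0.033 after another quantile normalization and 0.0267 with the prior that follows the signal, and with AngII it was 0.121 without a filter, 0.0509 with centred arrays, 0.0764 without moderation and 0.0614 with the groups compared alone.

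Leaving out each array in turn gave 7 to 10 lower and 3 to 5 higher for AngII with NCGap, and 3 to 6 lower and 4 to 7 higher for AngII with *Alivec*Gap, the 3 without *Alivec*Gap with PBS replicate 1, 2 or 3 or *Alivec*Gap with AngII replicate 2. For the mean knockdown comparison it gave 1 lower and 0 to 1 higher, the 1 without NCGap with AngII replicate 3. With PBS it gave 1 to 3 lower, the 1 without *Alivec*Gap with PBS replicate 3, and 0 to 1 higher, the 1 without NCGap with PBS replicate 1 or 3, *Alivec*Gap with PBS replicate 1 or NCGap with AngII replicate 3. With AngII it gave 2 to 4 lower and 2 to 6 higher, the 6 without NCGap with AngII replicate 1. The interaction gave 1 to 5, the 5 without NCGap with AngII replicate 3.

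The replicate block, with the replicate number as a term, gave 2 members lower in the mean knockdown comparison and 4 for the interaction, and moved no other count by over 1.5 times. No source ties arrays of one number together, and not every same-number pair correlated above 0.1, so the numbers were not taken as pairs: of 18 same-number pairs 9 correlated above 0.1 in their deviations from the group means (-0.0938 to 0.323, median 0.0939, against a median of -0.0614 for other numbers), and 7 of 12 arrays correlated best with an array of their own number. Members with signals near 6 are limited by signal over background.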
